A study of Mus musculus with 4 samples.

Results

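Narrow MED1 regions that consist of 1 deposited interval and lie inside protein-coding genes, away from the gene ends, numbered 3485. They were taken from 22565 MED1 regions on mouse chromosomes 1 to 19 and X, of which they make up 15.4%. Each region was built by joining deposited intervals that touch, and a region was kept when it held 1 interval, was narrower than 3776 bp, had its midpoint inside a RefSeq protein-coding gene on mm10, and had that midpoint more than 1 kb from both ends of every protein-coding gene. Of the 7956 regions of 1 interval these rules kept 43.8%, and of the 8863 regions with a midpoint inside a gene they kept 39.3%. The other regions inside genes were 4693 regions of 3 intervals, which serve below as the main reference, 477 regions of another number of intervals, and 208 regions of 1 interval at or above the width limit. Of all 22565 regions, 22427 (99.4%) held an odd number of intervals. What the number stands for is not given, so it is not read here as a count of binding sites. Single-interval regions that met the width limit but lay at gene ends (1333) or outside genes (2739) are given where they differ.

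The binding data came from 4 libraries of RAW 264.7 cells, a mouse macrophage-like line, precipitated with a MED1 antibody after fixation with DSG and formaldehyde. In 2 libraries the cells were untreated, and in 2 they had received lipopolysaccharide (LPS), a bacterial cell wall component, for 2 h. The labels of the samples give 10 ng/mL of LPS and the treatment protocol gives 100 ng/mL. The interval list covers the series as a whole, and no interval carries a library, a height or a count. Untreated and stimulated cells are therefore not compared, read depth is unknown, and no spread between libraries can be given. All values below describe positions in 1 list, without tests. Intervals in brackets are 95% intervals that cover counting only, and neighbouring genes and regions are not independent of each other.

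MED1 is a subunit of Mediator, the complex that carries signals from DNA-bound transcription factors to RNA polymerase II. It is found at promoters and at enhancers, and many enhancers lie within genes, most often in introns. In macrophages, enhancers are marked out by PU.1 together with C/EBP and AP-1 factors, while NF-kB, STAT and IRF factors act after LPS. A gene body can also contain further promoters, from which shorter transcripts begin.

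Some of the narrow single-interval regions covered such an inner start. The 5 windows below show the range of sequence found there. Each is a RefSeq promoter window on GRCm38.p6, which is the mm10 assembly, from 250 bases before to 50 after an annotated start of the host gene, written 5′ to 3′ on the strand of the gene, lying wholly within the MED1 region and more than 1 kb from every gene end. CG dinucleotides are in capitals, because CG content differed between inner starts with and without a MED1 region. They were chosen from 8 such windows of genes on the lists described below, after their values were seen.
Cd36 (chr5:17835847-17836146, minus strand): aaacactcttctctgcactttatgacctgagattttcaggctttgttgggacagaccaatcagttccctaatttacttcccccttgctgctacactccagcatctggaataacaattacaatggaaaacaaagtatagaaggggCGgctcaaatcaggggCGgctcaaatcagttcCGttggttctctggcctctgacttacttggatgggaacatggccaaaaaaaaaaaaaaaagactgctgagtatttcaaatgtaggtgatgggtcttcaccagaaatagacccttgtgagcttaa
Hdac9 (chr12:34528840-34529139, minus strand): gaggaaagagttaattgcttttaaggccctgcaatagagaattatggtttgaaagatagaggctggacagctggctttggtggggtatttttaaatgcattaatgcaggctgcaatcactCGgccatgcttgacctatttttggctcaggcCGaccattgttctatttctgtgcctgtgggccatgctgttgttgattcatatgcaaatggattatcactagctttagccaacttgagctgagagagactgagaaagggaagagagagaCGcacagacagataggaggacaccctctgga
Arhgap25 (chr6:87496278-87496577, minus strand): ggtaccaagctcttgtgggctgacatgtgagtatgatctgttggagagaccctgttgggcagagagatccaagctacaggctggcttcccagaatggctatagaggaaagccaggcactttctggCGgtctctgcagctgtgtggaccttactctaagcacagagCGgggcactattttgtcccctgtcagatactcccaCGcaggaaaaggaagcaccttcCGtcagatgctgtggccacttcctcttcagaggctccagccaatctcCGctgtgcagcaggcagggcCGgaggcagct
Elf4 (chrX:48454270-48454569, minus strand): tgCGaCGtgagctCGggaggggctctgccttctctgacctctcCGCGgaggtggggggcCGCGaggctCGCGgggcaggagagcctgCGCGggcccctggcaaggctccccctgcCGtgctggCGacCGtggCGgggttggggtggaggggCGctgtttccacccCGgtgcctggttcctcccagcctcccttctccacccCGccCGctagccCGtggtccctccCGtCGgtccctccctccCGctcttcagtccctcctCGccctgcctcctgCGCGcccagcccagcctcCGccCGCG
Brd3 (chr2:27475349-27475648, minus strand): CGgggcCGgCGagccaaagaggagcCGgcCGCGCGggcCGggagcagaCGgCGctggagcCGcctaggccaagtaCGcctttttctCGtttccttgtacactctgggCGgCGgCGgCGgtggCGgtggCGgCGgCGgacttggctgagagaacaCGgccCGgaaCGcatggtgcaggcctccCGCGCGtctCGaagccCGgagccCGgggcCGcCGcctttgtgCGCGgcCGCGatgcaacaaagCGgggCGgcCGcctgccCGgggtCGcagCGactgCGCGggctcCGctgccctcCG

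The Cd36 window, from a gene for a scavenger and fatty acid receptor of macrophages, holds 3 CG dinucleotides at a GC content of 43.0%. It lies in a region of 1010 bp, and the start is 17.5 bp from the region's midpoint and 53063 bp from the nearest gene end. The Hdac9 window holds 3 CG dinucleotides as well. Its region is 1696 bp wide, and the start, in a gene for a class IIa histone deacetylase, is 388206 bp from the nearest gene end. In the Arhgap25 window, from a gene for a GTPase-activating protein of Rac, there are 6. The Elf4 and Brd3 windows are of another kind, with 29 and 46 CG dinucleotides and a GC content of 75.3% and 75%. Elf4 encodes an ETS-family transcription factor and Brd3 a reader of acetylated histones. Their regions were 2498 and 2181 bp wide. The printed windows thus run from CG-poor to CG-rich.

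Annotated starts of any kind were the exception among these regions. Starts within 1 kb of a gene end are included in the shares that follow, for all classes of regions. On the chromosomes for which the promoter table has windows, 212 of 3400 narrow single-interval regions inside genes held an annotated start (6.24%, 5.47 to 7.10). Among 3-interval regions inside genes the share was 26.6% (1211 of 4548). It was 55.1% for narrow single-interval regions at gene ends and 3.20% for those outside genes. Of the 212, 168 held a start of their own host gene, 51 held the start of a long noncoding RNA, 8 held both, and 1 held another start. An inner start of the host gene, more than 1 kb from every gene end, lay in 148 regions. Wider regions can cover a start more easily, so regions of like width were set side by side. Below 1 kb, 4.96% of the narrow single-interval regions inside genes held a start against 11.1% of 3-interval regions. Between 1 and 2 kb the shares were 5.62% and 17.0%, and from 2 kb to the width limit 9.20% and 24.8%. The difference between these classes was therefore present in each width class.

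Read from the side of the genes, the table held 3881 inner starts of protein-coding genes, more than 1 kb from every gene end. A narrow single-interval region inside genes covered 165 of them (4.25%) and a 3-interval region inside genes 851 (21.9%). MED1 regions of any kind, those at gene ends included, covered 1263 (32.5%), and no MED1 region covered 2618 (67.5%). The windows of the 165 had a median GC content of 59.7% and a median of 17 CG dinucleotides. Those in 3-interval regions had 60.0% and 19, and those in no region 52.3% and 6. Inner starts under the narrow single-interval regions were thus like those under 3-interval regions in composition, although far fewer. The narrow single-interval regions also covered less sequence, 5249 kb against 15431 kb.

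Motifs of factors active in macrophages were counted in the same windows, on both strands, allowing overlaps between motifs. The ETS or PU.1 motif GAGGAAGT stood in 3.03% of the 165 windows, in 4.00% of windows in 3-interval regions, in 2.18% of windows in no region and in 3.22% of all 32619 windows. AP-1 (TGANTCA) stood in 7.88%, 6.35%, 8.48% and 7.85% in the same order. The NF-kB motif (GGGA and TTCC with 2 bases between) was found in 5 of the 165 (3.03%, 1.30 to 6.90), in 2.12% and 1.41% of the other sets of inner starts, and in 1.47% of all windows. The shares for C/EBP (TTGCNNAA) were 8.48%, 10.5%, 11.5% and 10.9%, those for the interferon-stimulated response element (a pair of GAAA with 2 bases between) 3.64%, 2.47%, 3.06% and 3.46%, and those for STAT (TTCNNNGAA) 7.27%, 7.52%, 7.52% and 8.34%. For each of the 6 motifs the interval of the 165 windows included the share of all windows. Of the printed windows, the Hdac9 window holds the AP-1 match TGATTCA, and the Arhgap25 window holds ACTTCCTC, the ETS or PU.1 motif read on the other strand, and the STAT match TTCCCAGAA. Sequence around the midpoints of the regions was not used here.

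The regions had a median width of 1355 bp (1327 to 1387), with quartiles at 962 and 1915 bp. Those from 1000 to under 2000 bp were the largest class (1729 regions, 49.6%), 861 (24.7%) were 500 to under 1000 bp, 785 (22.5%) were wider, up to the limit, and 110 (3.16%) were below 500 bp. Narrow single-interval regions at gene ends (median 1235 bp) and outside genes (1253 bp) were of similar width. The 3-interval regions inside genes, which have no width limit, had a median of 2500 bp. Together the narrow single-interval regions inside genes covered 5249 kb.

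Width and distance chose these regions, so the values at the limits are given only as a description. The narrowest was 30 bp, in Csgalnact2, a gene for an enzyme of chondroitin sulphate synthesis (chr6:118136362-118136391), followed by regions of 57 bp in Ubac2, 77 bp in Notch2, 103 bp in Ankrd28 and 195 bp in Rab12. Just under the width limit were regions of 3774 bp in Rbm47, 3758 bp in Ptpro and 3750 bp in Oser1, and at or just over it regions of 3776 bp in Ptpn22 and Chchd6 and 3787 bp in Fat3. The distance limit fell between a midpoint 1000.5 bp from a gene end, in Ywhah, and one 999.0 bp away, in Trim13. At the far extreme, midpoints in Dlg2 lay 759182 and 733711.5 bp from a gene end, and 1 in Magi2 lay 733339 bp away. Inside genes the width limit set aside 208 wider single-interval regions.

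A protein-coding gene with at least 1 of these regions inside is called a host gene here. There were 2440 host genes among 21631 protein-coding genes, a share of 11.3% (10.9 to 11.7) that serves as background for the gene groups below. A 3-interval region lay inside 14.6% of genes. Of the host genes, 1768 held 1 region, 424 held 2, 147 held 3, 50 held 4, 33 held 5, and the most was 8. Nearly all regions (3451) lay in 1 gene, 32 lay in 2 overlapping genes, 1 in 3 and 1 in 24. Of the host genes 1091 also had a 3-interval region inside, and 645 had neither that nor a MED1 region at an end.

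Hdac9, Rad51b and Zmiz1 each held 8 narrow single-interval regions, more than any other gene. The 8 in Hdac9 were 608 to 3233 bp wide, with a median of 1486 bp, and were spread over 300 kb of a gene of 869516 bp that also held 4 regions of 3 intervals (gene at chr12:34047580-34917095). Rad51b held 1 region of 3 intervals in its 550979 bp, and its 8 were 768 to 2279 bp wide. In Zmiz1, a gene for a transcriptional coactivator of the PIAS-like family, the 8 were 1010 to 1812 bp wide, and 6 of them lay within chr14:25586750-25615602 with no other kind of region among them. Genes with 7 such regions were Gas7, Mtss1, Pde4d, Pip4k2a, Tec and Ubash3b. Mtss1, whose product bends membranes and binds actin, held all 7 in 1 run of 11 regions at chr15:58976478-59058092. Ubash3b encodes a phosphatase that dampens tyrosine kinase signalling, Pde4d a cAMP phosphodiesterase and Pip4k2a a phosphoinositide kinase.

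**Figure D1:**
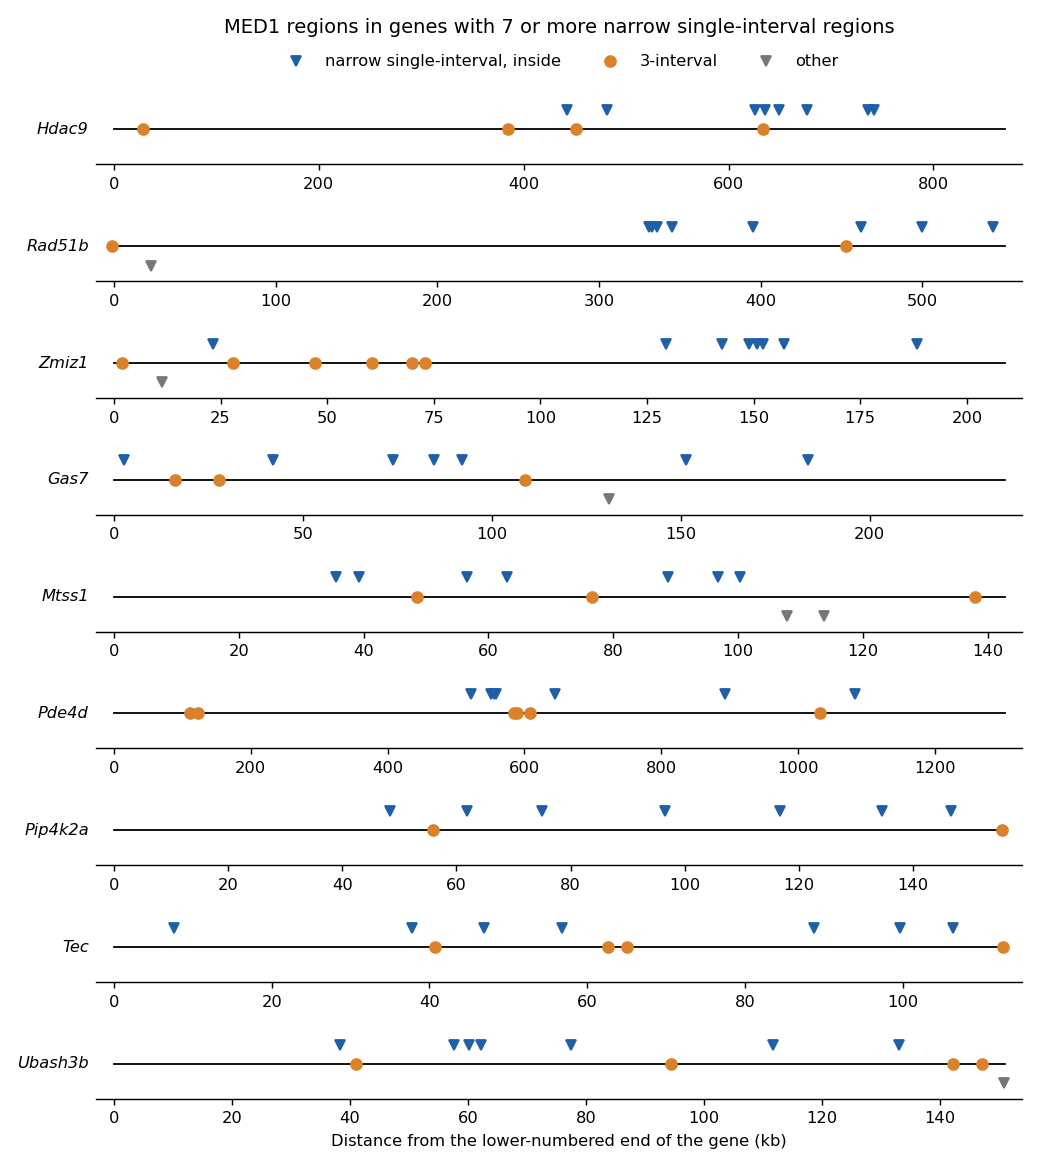
MED1 regions along the 9 genes with 7 or more narrow single-interval regions inside. The x axis of each panel is the distance of a region's midpoint from the lower-numbered end of the gene (kb, own scale per gene); triangles above the line are narrow single-interval regions inside, circles 3-interval regions and triangles below the line all others, and symbol sizes are not to scale. In Zmiz1 the 6 circles and all but 1 of the 8 blue triangles lie in separate parts of the gene, whereas in Tec and Ubash3b they alternate.

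Tec, which encodes the founding TEC-family tyrosine kinase, shows the pattern in a gene of moderate length, 112937 bp. Its 7 narrow single-interval regions were 1061, 1387, 2413, 2045, 1621, 2085 and 1125 bp wide in order along chromosome 5. Their midpoints lay 6524 to 105272 bp from the annotated start, so they were spread over nearly the whole gene. The gap to the nearest other MED1 region ranged from 1132 to 28935 bp. Foxp1, which encodes a forkhead transcription repressor, held 6, of 1739, 3612, 1958, 396, 1187 and 727 bp, beside 12 regions of 3 intervals. Arhgap24 encodes a Rac-directed GTPase-activating protein and held 6 of 803, 913, 1604, 1448, 626 and 1415 bp with no 3-interval region. Gaps to the nearest MED1 region ran from 4137 to 25459 bp in Foxp1 and from 307 to 256226 bp in Arhgap24, whose last region stood far from the other 5.

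Relative to gene length the order was different. Among genes with at least 3 narrow single-interval regions, Timeless, a gene linked to the circadian clock and replication fork stability, had the most per length, 14.4 per 100 kb. Its 3 regions, of 1419, 1204 and 1541 bp, lay in a row at chr10:128233676-128238803 with gaps to the nearest region of 321 to 349 bp. Cyb5rl followed with 14.2 per 100 kb (1852, 796 and 1288 bp) and Rab12, a small GTPase of endosomal transport, with 11.9 (2218, 195 and 3557 bp). Vps37b, a subunit of the ESCRT-I complex, had 10.9 per 100 kb (3192, 1496 and 2688 bp). Timeless, at 20879 bp, was shorter than most hosts. Gaps to the nearest region were small in Timeless and wider in Vps37b (364 to 3945 bp).

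Host genes were long, with a median of 61251 bp against 17329 bp for all protein-coding genes. The share of genes that were hosts was 1.45% up to 10 kb (112 of 7742), 8.48% from 10 to 30 kb, 19.2% from 30 to 100 kb, 33.5% from 100 to 300 kb (626 of 1870) and 33.0% above 300 kb (184 of 557). For 3-interval regions the shares were 3.41%, 13.7%, 24.0%, 33.9% and 29.6%. Per length the order reversed. There were 6.09 narrow single-interval regions per Mb of gene interior in genes up to 10 kb, 5.82, 4.82 and 3.83 in the classes between, and 1.30 in genes above 300 kb, with 3.54 over all genes. The 3-interval regions fell more steeply, from 14.3 to 1.36 per Mb. The number of narrow single-interval regions per 100 regions of 3 intervals was 42.5, 62.6, 74.2, 83.6 and 95.4 from the shortest to the longest genes.

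Along the gene, the regions showed a smaller excess near the annotated start than those of 3 intervals. The strand of the gene was known for 79.6% of region and gene pairs. In genes longer than 20 kb, 13.1% of 2510 pairs lay in the first 10% of the gene's length, 12.4% in the next 10% and 7.21% in the last. Of 3201 pairs with a 3-interval region, 21.1% lay in the first 10% and 5.28% in the last. For both kinds, midpoints 1 kb or less from a gene end were excluded, which leaves less room in the first and last 10%. The next values cover all pairs of known strand in genes of any length, 2821 and 3819, and were not matched for gene length. The median distance from the annotated start was 26659.5 bp (quartiles 9327.5 and 74580 bp) against 18091.5 bp for 3-interval regions. Within 5 kb of the start lay 14.9% against 27.6%. The nearest gene end of any gene was at a median of 15070 bp (14359.5 to 16059.5), against 11032 bp.

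Gene groups were read against the background of 11.3% of all genes and 16.8% of genes longer than 10 kb. The median length of the genes is given beside each group, since longer genes are more often hosts. Of 18 lists, 17 held a host gene. For each list the 3 genes with the most regions and the longest gene without one were to be named. The others named below (Pparg, Tcf4, Runx1, Spi1, Rasa2, Lyn, Lyz2, Clec4e, Mertk, Malt1, Nfkbiz, Plek, Rel, Traf1 and Mmp9) were picked after their values were seen.

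Transcription factors of the myeloid lineage had the highest share of hosts among the 18 lists. Of 48, 27 held a narrow single-interval region inside (56.3%, 42.3 to 69.3), and 33 (68.8%) a region of 3 intervals. Their median length was 62442 bp, and among those longer than 10 kb 69.2% were hosts. Foxp1 led with 6, then Runx2 with 5, and Bach2, Pparg and Tcf4 with 4 each. Runx2, known best for bone formation, held regions of 638, 398, 2087, 1096 and 989 bp, and Bach2, a repressor that pairs with small Maf proteins, 1211, 1296, 1620 and 2695 bp. Pparg, the lipid-sensing nuclear receptor, held 1403, 1362, 1164 and 708 bp. Runx1 held 2003, 1604 and 1792 bp and Spi1, the gene of PU.1 itself, held 1 of 1720 bp at chr2:91107401-91109120. Zeb2 was the longest member of the list without one, at 133931 bp, and it did hold a single-interval region above the width limit, of 8664 bp.

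Signalling genes formed the next group. Of 70 genes of kinases, phosphatases and phosphoinositide signalling, 33 were hosts (47.1%, 35.9 to 58.7), at a median length of 67383.5 bp, and 54.3% held a 3-interval region. Tec led with 7, and Prkch (a protein kinase C isoform), Ptpra (a receptor phosphatase) and Rasa2 (a Ras GTPase-activating protein) held 4 each. The 4 in Prkch were 1828 to 2734 bp wide and had no 3-interval region beside them. Lyn, a Src-family kinase of myeloid cells, held 3, of 3587, 3116 and 2525 bp. Inpp4b was the longest without one.

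The actin cytoskeleton and adhesion list had 24 hosts of 55 (43.6%, 31.4 to 56.7), against 69.1% with a 3-interval region. Its genes are long, with a median of 77689 bp. Lpp, a focal adhesion protein of the zyxin family, held 5, of 1338 to 3501 bp, beside 9 regions of 3 intervals and 6 single-interval regions above the width limit. Itgb5, an integrin subunit, and Myo1d, an unconventional myosin, held 3 each. Diaph2 was the longest without one.

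Genes that define macrophages held these regions in a smaller part of the list than 3-interval regions. Of 35, 7 were hosts (20%, 10 to 35.9), at a median length of 14747 bp, while 17 (48.6%) held a 3-interval region. Ptprc, the CD45 phosphatase, held 3, of 1712, 2089 and 2767 bp. C5ar1, the receptor of complement C5a, held 1 of 1351 bp. Lyz2, the lysozyme of myeloid cells, held 1 of 492 bp, Clec4e, the lectin receptor Mincle, 1 of 2739 bp, and Mertk, a receptor for apoptotic cells, 1 of 1480 bp. Adgre1, the gene of the F4/80 antigen, held none in 124949 bp. Among endolysosome and phagocytosis genes 9 of 47 were hosts (19.1%), led by Vps37b with 3 and by Rab31 and Snx9 with 2 each, and 40.4% held a 3-interval region. The median length on this list was 25570 bp. Only 1 of the 2 in Snx9 lay wholly inside the gene and more than 1 kb clear of gene ends.

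Primary LPS response genes seldom held these regions but are short. Of 43, 2 were hosts (4.65%, 1.28 to 15.5), although 16 (37.2%) held a 3-interval region inside. The interval of the first share includes the background of 11.3%. With a median length of 5497 bp, the list held 6.44 narrow single-interval regions per Mb, against 3.54 over all genes, and 36.5 regions of 3 intervals per Mb, against 4.74. Nfkb1, the gene of the NF-kB p105 and p50 proteins, held 2, of 864 and 2558 bp, and Icam1, an adhesion molecule, held 1 of 2897 bp. Tnip1 was the longest without one. The width limit matters here. Single-interval regions at or above it lay inside 6 of the 43 (14.0%), against 180 of all genes (0.832%). Those genes were Malt1, Nfkb1, Nfkbiz, Plek, Rel and Traf1, with widths from 4497 bp in Nfkb1 to 15775 bp in Malt1. With both widths counted, 7 of 43 were hosts (16.3%) against 11.6% of all genes. Secondary and interferon response genes had 2 hosts of 36 (5.56%), Il10 with 1 region of 1225 bp and Usp18, a deubiquitylase that removes ISG15, with 1 of 3040 bp. With a median length of 11005 bp, the genes of this list held 3.69 narrow single-interval regions per Mb. Wider single-interval regions lay inside 3 of the 36 (8.33%), and with both widths counted 5 were hosts (13.9%, against 11.6% of all genes). The Il10 region did not lie wholly inside the gene and 1 kb clear of its ends.

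Histone acetylation and acetyl-CoA supply are named in the title of the series. Of 31 genes for enzymes that add, remove or read histone acetylation, 10 were hosts (32.3%, 18.6 to 49.9) with 24 narrow single-interval regions, and 35.5% held a 3-interval region, 16 regions in all. The median length of the 31 genes was 38394 bp. Narrow single-interval regions outnumbered those of 3 intervals here, as they did in the neutrophil and neuron lists. Hdac9 held 8, Ncoa2, a nuclear receptor coactivator, held 5 (1372, 1463, 1107, 1377 and 911 bp), and Kat2b, the acetyltransferase PCAF, held 2. Without Hdac9 and Ncoa2, the other 29 genes held 11 regions of each kind. Of 28 genes of 2-ketoacid dehydrogenases and acetyl-CoA metabolism, 6 were hosts (21.4%, 10.2 to 39.5) with 7 regions, and 5 genes held 7 regions of 3 intervals. The median length of the 28 genes was 24952 bp. Acaca was the 1 gene with both kinds. Bckdha, a subunit of the branched-chain ketoacid dehydrogenase, held 2, of 2066 and 1491 bp, and Acaca, the acetyl-CoA carboxylase of fatty acid synthesis, and Acat1, a mitochondrial thiolase, held 1 each, of 858 and 777 bp. Pdk3 was the longest without one. Of 33 Mediator genes 3 were hosts (9.09%), Med13l with regions of 1284 and 1043 bp, Cdk19 with 1 of 876 bp and Med27 with 1. The median length of the 33 genes was 17987 bp.

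Marker genes of other cell types were read as a check of the labelled cell type. T cell markers had 1 host of 25 (4%), B cell markers 1 of 20 (5%, Bank1), hepatocyte markers 1 of 22 (4.55%, Hnf4a) and skeletal muscle markers 0 of 24, a count that allows up to 3 of the 24. Median gene lengths were 21024, 14259, 10153 and 17068.5 bp in the same order. Neutrophil markers had 4 hosts of 20 (20%, 8.07 to 41.6), Csf3r, Cxcr2, Fpr1 and Mmp9, in genes of 7253 to 21535 bp. This equals the 20% of the macrophage list. At a median length of 3688 bp, the neutrophil list held 35.8 regions per Mb, from 4 regions, the highest density of the 18 lists. The macrophage list held 10.5 per Mb. By the stricter rule that the whole region lies inside the gene and 1 kb clear of gene ends, Cxcr2, Fpr1 and Mmp9 had none and 5% of the list remained. Neuron markers had 5 hosts of 30 (16.7%), with 4 regions in Dlg2 and 3 in Rbfox1, genes of 1973059 and 1527688 bp. With a median gene length of 240229.5 bp and 0.531 regions per Mb, the neuron list stood below the 3.54 per Mb of all genes. Of its 10 regions, 7 lay in Dlg2 and Rbfox1. Housekeeping genes, of median length 5129 bp, had 2 hosts of 24 (8.33%), Gusb with 1 region of 1898 bp and Hsp90ab1 with 1 of 1632 bp. The Hsp90ab1 region did not lie wholly inside the gene and 1 kb clear of its ends.

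Of the narrow single-interval regions inside genes, 40.7% had another MED1 region within 5 kb and 73.9% within 20 kb. The median gap to the nearest was 7590 bp (6923 to 8075), with quartiles of 2065 and 20973 bp. It was 6450 bp for 3-interval regions inside genes, 7283 bp for narrow single-interval regions outside genes and 10117 bp for those at gene ends. A gap below 1 kb was found for 579 (16.6%). The nearest region consisted of 3 intervals for 56.4% and of 1 interval for 39.2%, and it was itself a narrow single-interval region inside a gene for 983 (28.2%). Over all regions 60.4% consist of 3 intervals and 35.3% of 1. Between neighbouring narrow single-interval regions of the same gene the median gap was 16.4 kb over 1102 gaps, of which 88 were below 1 kb. These gaps pass over MED1 regions of other kinds and are not gaps to the nearest region. Their median therefore cannot be compared with the 7590 bp above.

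Regions close to each other were joined into clusters, and the largest 5% of clusters by covered length were singled out. Of the 3485 regions, 1326 (38.0%) stood alone in their cluster, and 367 (10.5%, 9.55 to 11.6) lay in 1 of the 678 largest. The share in the largest clusters was 17.1% for 3-interval regions inside genes, 12.4% for narrow single-interval regions outside genes, 6% for those at gene ends and 39.4% for single-interval regions inside genes above the width limit. Covered length is part of the ranking, so wider regions enter large clusters more easily. Within the narrow single-interval regions the median width was 1781 bp in the largest clusters, 1363 bp in other clusters and 1264 bp for those alone. The cluster with the most of them was the run of 7 in Mtss1, which is among the largest and covers 29.7 kb. The run of 6 in Zmiz1 covers 7.59 kb and is not among the largest. Clusters with 5 lay at Def6, Ppard and Zfp523, in Tbc1d23, and in Tbc1d1. These clusters were picked after their values were seen. So was the cluster of 17 regions, among the largest, that holds the C5ar1 region.

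MED1 regions at the gene ends were counted in host genes and in other genes. Of 2440 hosts, 1185 (48.6%, 46.6 to 50.5) had another region whose midpoint was 1 kb or less from an end. The figure was 6870 of 19191 (35.8%) for genes without a narrow single-interval region inside. By gene length the shares for hosts and other genes were 46.4% and 27.9% up to 10 kb, 50.2% and 44.4% from 10 to 30 kb, 51.9% and 43.7% from 30 to 100 kb, 46.2% and 26.4% from 100 to 300 kb, and 35.3% and 6.70% above 300 kb. Hosts were ahead in each length class, by least at 10 to 30 kb. A 3-interval region lay inside 44.7% of host genes and 10.8% of other genes.

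By chromosome, the density ran from 1.71 per Mb of gene interior on X and 2.67 on chromosome 18 to 5.34 on chromosome 11, which held 282. Their share of all regions of a chromosome stayed between 13.5% (chromosome 19) and 17.6% (chromosome 5). Of 1005 miRNA hairpins in the RefSeq table, 6 lay in a narrow single-interval region inside a gene, against 27 in 3-interval regions inside genes. These kinds of region covered 5249 kb and 15431 kb of sequence. The 6 hairpins were Mir7059 in Cln3, Mir12181 in Coro6, Mir6541 in Wdfy2, Mir6993 in Fads1, Mir5114 in Scd2 and Mir8090 in Cfap43, named after they were seen.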

How the data were processed

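MED1 ChIP-seq was run on 4 libraries of RAW 264.7 cells, 2 untreated and 2 given LPS for 2 h. Bowtie, SAMtools, MACS2 2.2.6 and mm10 are named in the submitters' processing notes. Peak-calling settings, controls and pooling were not given in the sources used here. In all, 53764 intervals were deposited for the series, with a score from the authors that is 0 in every line; depth is unknown, and there were 0 columns of other samples.

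Intervals whose start equals the preceding end were joined. Coordinates are 1-based. Genes were 21631 RefSeq protein-coding genes of GRCm38.p6 on chromosomes 1 to 19 and X; exons were not used here. Starts, strands and 300-base promoter windows came from a RefSeq table whose windows for chromosome 18 were not used here. Interiors exclude 1 kb at gene ends. Clusters join regions at most 12.5 kb apart. Intervals of shares are Wilson 95% intervals, and those of medians come from order statistics.

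The regions and the 18 gene lists (637 entries, 635 found) were chosen with earlier results of these data known. Named genes were the 15 with the most regions, the 10 with the most per length among genes with 3 or more, up to 3 per list and the longest without one, and hosts of the 5 extreme regions at each limit; some of them, and 1 of the lists, are not reported here. Alternatives covered the distance, width, joining, gene type, stitching and overlap rules. The rule was also run on simulated regions. For 389 of 389 its call equalled a gene-by-gene recalculation of the same rule, which checks the code only. Software was matplotlib 3.10.9, scipy 1.17.1, pandas 2.3.3, numpy 2.4.6 and Python 3.11.15.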

Additional observations from a re-analysis of the deposited data

Results flagged for a closer look

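The deposited list held 4 intervals on the mitochondrial chromosome, which no comparison above uses, and this is above the limit of 3 that a count of 0 allows. It also held 13 intervals on chromosome Y, likewise unused and above that limit. No control sample and no expected count was available, so neither count is read as an excess.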

How the results depend on the processing

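No paired analysis was possible because the list carries no columns per library. The planned motif count at region midpoints needs a genome and was not run, and the count in promoter windows was added after the data were examined. Depth limits cannot be given.

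With a gene-end distance of 2.5 kb, the share of genes that were hosts was 9.90%, the median distance to a gene end 18741.25 bp and the density 3.33 per Mb. With whole regions inside genes and 1 kb clear of ends these were 10.4%, 17236.5 bp and 3.28 per Mb. Without the width limit, the median width was 1411 bp, the share in the largest clusters 12.2% and the density 3.74 per Mb. With the limit at the median of single-interval regions (1346 bp), 1726 regions remained, with a median width of 959 bp, 6.65% of genes as hosts, a distance of 13823.5 bp, a gap of 9547.5 bp, 6.95% in the largest clusters and 1.75 per Mb. With intervals up to 500 bp apart joined, hosts were 10.5%, the gap 9408.5 bp, the share in the largest clusters 9.01% and the density 3.18 per Mb. With all RefSeq genes, these values were 5.74% for hosts, 9677.5 bp for distance, 45.0% for hosts with a region at an end and 3.29 per Mb. Stitching within 5 kb gave 6.40% in the largest clusters, and any overlap at gene ends gave 63.4% of hosts, against 45.6% of all genes.

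Of the 18 list shares, 17 stayed inside their own wide 95% interval under each of the first 3 alternatives, and all 18 in genes longer than 10 kb. Some crossed the share of all genes. Without the width limit, primary LPS response genes went from 4.65% to 16.3% and secondary and interferon response genes from 5.56% to 13.9%, against 11.6% of all genes. Neutrophil markers went from 20% to 5% with the distance of 2.5 kb and with whole regions. When whole regions were required, 90 of 104 named genes had an equal count and 14 a lower one, including Dock11 and Rab12 (3 to 2) and Zmiz1 (8 to 7).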
